A study of Mus musculus with 16 samples.

Results

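Brain RNA from 8 female mice that carried both a human APP and a human CETP transgene (APPtg/CETPtg) was compared between 4 mice given evacetrapib, named E, F, G and H, and 4 given vehicle, named S5, S6, S7 and S8. These 8 mice were chosen by the genotype label alone, and they are 8 of the 16 mice of the study. The other 8 mice carried CETP without APP (CETPtg) and had the same 2 treatments. They entered the fit, which shares its estimate of the spread over all 16 mice, and are described only where the effects in the 2 genotypes were tested against each other.

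The APP transgene encodes APP751 with the Swedish and Indiana mutations under the Thy1 promoter, so its expression is limited to neurons, and the CETP transgene is under the human CETP promoter. Both transgenes were heterozygous on C57BL/6J. All mice of both groups were fed a diet with 1% cholesterol from young adulthood on. Evacetrapib was given by daily intraperitoneal injection at 30 mg/kg for 11 weeks, and the vehicle was Kolliphor EL with glucose. The hour of the day at which each mouse was killed, and which part of the cerebrum gave the RNA of each mouse, are not given in the sources used here. Nothing in the labels says whether mice shared a litter, a cage or a day of collection, so p-values measure the spread between these mice.

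CETP moves cholesteryl esters and triglycerides between plasma lipoproteins, and evacetrapib inhibits it. Mice have no CETP of their own. Several groups of genes in the brain are known to move within hours. Immediate early genes, such as Fos, Arc and Npas4, are transcribed within minutes of neuronal firing and encode mostly transcription factors. Glucocorticoid-responsive genes follow the level of corticosterone in blood, and the clock genes of the period and D-box families cycle with the time of day. Endothelial cells, pericytes and smooth muscle cells of the vessel wall make up a small part of brain tissue, so their genes are read in bulk RNA through a few marker transcripts.

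Between 21391335 and 55453789 reads were counted on genes in each of these 8 mice, and S8 was the deepest. Thy1, the gene whose promoter drives the APP transgene, was at 865 to 2063 CPM (counts scaled by TMM library size, as edgeR gives them) in the 8 APPtg/CETPtg mice and at 684 to 807 CPM in the 8 CETPtg mice, without overlap. The 16 neuronal markers, which include Thy1, summed to between 14590 and 16930 CPM. The 16 oligodendrocyte markers summed to between 3744 and 5091 CPM. Several libraries held RNA of neighbouring tissue. Mouse E carried pituitary transcripts, with 13648 counts of prolactin (Prl), 4495 of growth hormone (Gh), 3915 of Pomc and 503 of the glycoprotein hormone alpha chain (Cga). In the other 7 mice Prl had 0 to 4 counts, Gh 0 or 1 and Pomc 31 to 106. Of the 25 pituitary markers, 8 passed the count filter. The choroid plexus gene Ttr was at 97.3 CPM in S7 and 427 CPM in S8, both vehicle mice, and at 1.5 to 10.6 CPM in the other 6. Hypothalamic transcripts were high in S7 and, to a lesser degree, in H. Oxytocin (Oxt) had 921 counts in S7, 167 in H and 2 to 11 in the other 6. Vasopressin (Avp) had 793 in S7, 132 in H and 2 to 19 in the other 6. Olfactory bulb markers were high in E, G and S6: Omp, the olfactory marker protein, was at 16.9, 19.9 and 17.6 CPM in these, at 11.6 CPM in H, 4.26 CPM in S7, 1.22 CPM in F, 0.454 CPM in S5 and 0.467 CPM in S8. Results are therefore also given without these mice.

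Genes were tested where at least 10 counts were seen in at least 4 of the 16 mice. Of 18609 genes, 8 passed an adjusted p of 0.05 (edgeR's quasi-likelihood test, adjusted by Benjamini-Hochberg) and the small minimum fold change that the study used, which is 0.043% of the genes tested. All 8 were lower with evacetrapib: Arl4d, Npas4, Junb, Egr4, Gadd45g, Ccn1, Herpud1 and Gm19439. In all 8 genes the 4 evacetrapib mice lay below the 4 vehicle mice, a separation that 2.32% of all genes tested showed. The 8 genes were picked by p from the same mice, so their separation is not further evidence. At an unadjusted p under 0.05, there were 1677 genes (9.01%), 874 of them higher (4.7%) and 803 lower (4.32%). DESeq2 called 73 genes, 32 higher and 41 lower (0.172% and 0.22%), including the same 8, and limma-voom called 7 of the 8 (0.0376%). DESeq2 gave no adjusted p for 4693 of the 18609 genes in this comparison. Its shares here and below are of all 18609 genes. The count of 8 was 12 without mouse E, with all 8 genes among them, 14 without S8, 5 without H or S5, 4 without F, 3 without S7 and 0 without mouse G. In the edgeR fit without mouse G, the adjusted p was 0.0609 for Arl4d, Npas4, Junb and Egr4 and 0.174 or 0.183 for the other 4, with 1323 genes at an unadjusted p under 0.05. Over 19 alternative fits the highest adjusted p was between 0.0633 for Arl4d and 0.469 for Gm19439. With E, G and S6 left out together, no gene passed in edgeR, and 1159 genes had an unadjusted p under 0.05. The median log2 fold change over all genes tested was -0.0011, and 49.6% of the estimates were above 0.

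**Figure D1:**
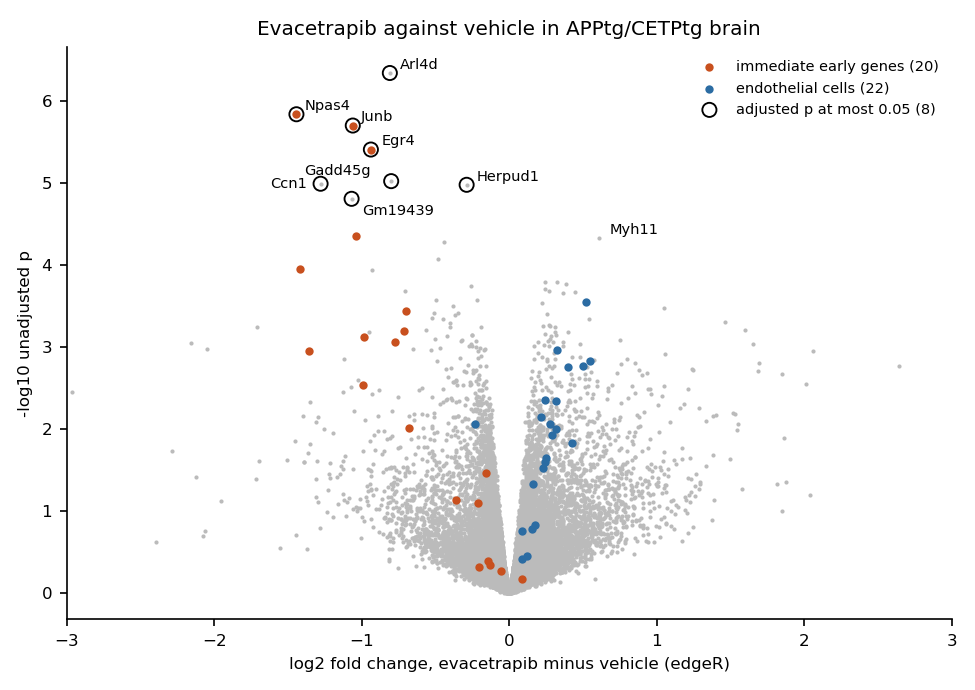
Volcano plot of 18609 genes, with the log2 fold change between evacetrapib and vehicle in APPtg/CETPtg mice on the x axis and -log10 of the unadjusted p on the y axis; 6 genes beyond 3 on the x axis are not drawn. The 8 circled genes passed the test and lie on the left, immediate early genes (orange) lie mostly on the left and endothelial genes (blue) mostly on the right.

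The gene with the smallest p was Arl4d, a small GTPase of the ARF-like family. Arl4d was at 22.8, 18.8, 17.4 and 20.5 CPM in E, F, G and H and at 39.3, 32.9, 36.8 and 30.9 CPM in S5, S6, S7 and S8. It fell by 0.81 on the log2 scale (SE 0.108, edgeR adjusted p = 0.00856). The highest evacetrapib mouse was E and the lowest vehicle mouse S8, and these were still apart. Arl4d was called in 16 of the 19 alternative fits, with a log2 fold change between -0.89 and -0.75 in all of them.

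Of the 8 genes, 3 were immediate early genes that encode transcription factors. Npas4, which is induced by calcium entry in neurons and controls inhibitory synapses, was at 12, 6.33, 10.7 and 11.4 CPM in E, F, G and H. In S5, S6, S7 and S8 Npas4 was at 23.9, 27.7, 26.1 and 31.5 CPM. It fell by 1.44 on the log2 scale (SE 0.209, edgeR adjusted p = 0.0124), and mouse F was the lowest of the 8.

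Junb, a subunit of the AP-1 factor, was at 51.5, 33.3, 52.4 and 66.7 CPM in E, F, G and H and at 104, 99.4, 124 and 97.1 CPM in S5 to S8. Junb fell by 1.06 on the log2 scale (SE 0.158, edgeR adjusted p = 0.0124). Egr4, a zinc finger factor of the early growth response family, was at 28.9, 22.9, 32.2 and 36.0 CPM with evacetrapib and at 47.6, 72.2, 62.9 and 47.5 CPM with vehicle. Egr4 fell by 0.94 on the log2 scale (SE 0.146, edgeR adjusted p = 0.0183). In both genes mouse F was the lowest and mouse H the highest of the evacetrapib mice, and the groups did not overlap.

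Gadd45g, a stress-inducible protein linked to DNA demethylation, was at 13, 8.28, 9.27 and 10.8 CPM with evacetrapib and at 16.1, 23.7, 14.8 and 17.8 CPM with vehicle. It fell by 0.80 on the log2 scale (SE 0.134, edgeR adjusted p = 0.0282). Ccn1, a secreted matrix protein that is induced in the same early way, was at 5.06, 3.08, 3.27 and 4.97 CPM with evacetrapib and at 10.4, 7.17, 12.7 and 9.50 CPM with vehicle. Ccn1 fell by 1.28 on the log2 scale (SE 0.215, edgeR adjusted p = 0.0282). The groups of both genes were apart, by less in Gadd45g, where E and S7 lay close.

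Herpud1, a membrane protein of the endoplasmic reticulum that takes part in the degradation of misfolded proteins, had the smallest SE of the 8. Herpud1 was at 51.0, 46.6, 47.6 and 48.5 CPM in E to H and at 59.8, 61.5, 60.8 and 54.8 CPM in S5 to S8. It fell by 0.29 on the log2 scale (SE 0.0486, edgeR adjusted p = 0.0282). Gm19439, a transcript without an assigned type or function, was at 5.66, 5.12, 3.60 and 4.73 CPM with evacetrapib. With vehicle Gm19439 was at 11.9, 11.2, 11.2 and 6.41 CPM, and the low value was that of S8. Gm19439 fell by 1.07 on the log2 scale (SE 0.186, edgeR adjusted p = 0.0365). Herpud1 and Gm19439 were the least stable of the 8: each was called in 2 of the 8 fits that left out 1 mouse, against 7 of 8 for Arl4d and Npas4.

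**Figure D2:**
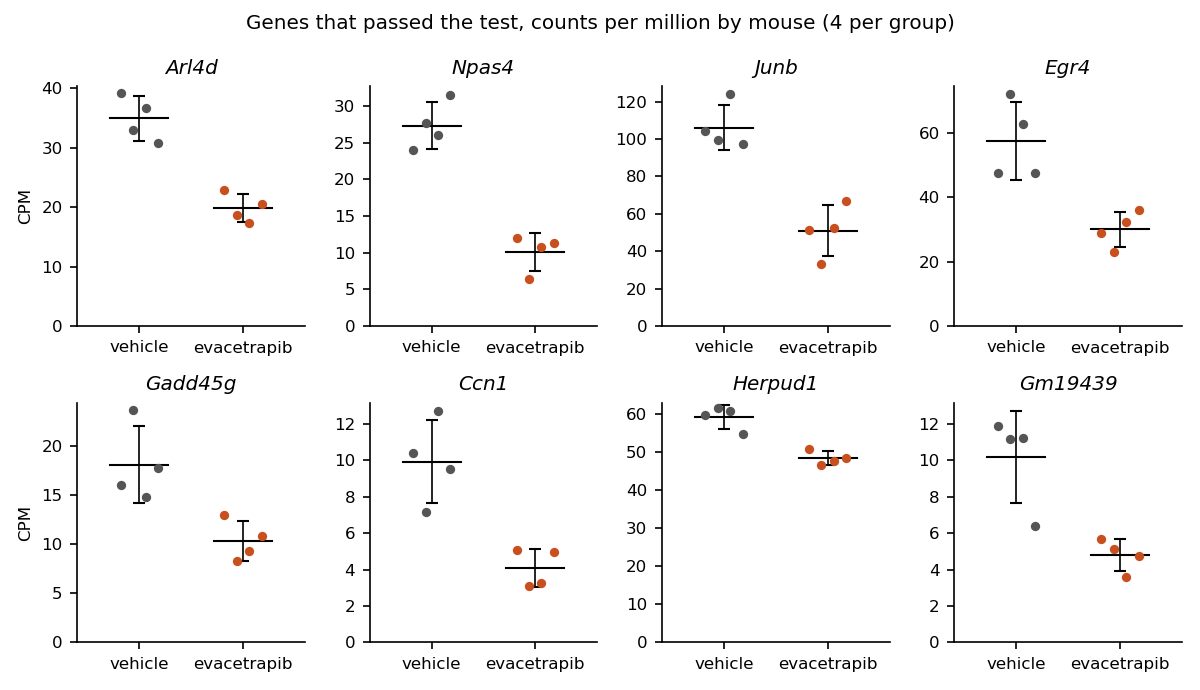
CPM in each mouse for the 8 genes that passed the test, with 4 vehicle mice (grey) and 4 evacetrapib mice (orange); horizontal lines are means and bars are 1 SD. In every panel the 4 evacetrapib points lie below the 4 vehicle points.

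In GRCm38 and the GENCODE M21 annotation, Arl4d (ENSMUSG00000034936) is on chromosome 11 at 101665541 to 101667832 on the plus strand and Npas4 (ENSMUSG00000045903) on chromosome 19 at 4984355 to 4990316 on the minus strand. Junb (ENSMUSG00000052837) is on chromosome 8 at 84974484 to 84978718 on the minus strand and overlaps Prdx2 on the opposite strand. Egr4 (ENSMUSG00000071341) is on chromosome 6 at 85511121 to 85513589 on the minus strand, and Gadd45g (ENSMUSG00000021453) is on chromosome 13 at 51846678 to 51848468 on the plus strand. Ccn1 (ENSMUSG00000028195) is on chromosome 3 at 145646976 to 145649981 on the minus strand, and so is Gm19439 (ENSMUSG00000105843), at 88030878 to 88033150 on the plus strand. Herpud1 (ENSMUSG00000031770) is on chromosome 8 at 94386438 to 94395377 on the plus strand and overlaps the antisense gene Gm15890. The strand setting of the counting is not given in the sources used here, so reads of Junb and Herpud1 may include some from the other strand.

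Immediate early genes are known to be driven by factors such as CREB, which binds the palindromic cAMP response element (CRE) or its shorter form TGACG, which the full element contains. In the 250 bases before the RefSeq start, on either strand, TGACG was found in 6 of the 7 called genes that have an entry, all but Gadd45g, and in 12 of the 15 immediate early genes with an entry. Npas4, Junb and Egr4 are in both sets, so the 2 counts are not separate. TGACG was found in 17.8% of all 32851 promoters, and the full element in 1.55%. The full element was in 1 of the 7 and in 2 of the 15. The CArG box, another element searched for in the same windows, was in 0 of the 7, 1 of the 15 and 1.47% of all promoters. These shares count single promoters, while a gene was counted where any of its entries held the element. The promoters of Arl4d (chr11:101665291-101665540, plus strand), Junb (chr8:84978749-84978998, minus strand) and Egr4 (chr6:85513590-85513839, minus strand) are shown as 3 examples of the 6. Sequences are from RefSeq (GRCm38.p6), run 5′ to 3′ on the strand of the gene and end at the base before the start, and capitals mark TGACG, or CGTCA where it reads on the other strand, and the full element.
Arl4d: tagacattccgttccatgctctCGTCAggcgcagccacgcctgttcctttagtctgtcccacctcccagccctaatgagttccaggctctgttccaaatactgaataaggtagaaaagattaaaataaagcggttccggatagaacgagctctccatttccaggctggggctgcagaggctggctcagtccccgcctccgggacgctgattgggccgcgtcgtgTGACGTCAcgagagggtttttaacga
Junb: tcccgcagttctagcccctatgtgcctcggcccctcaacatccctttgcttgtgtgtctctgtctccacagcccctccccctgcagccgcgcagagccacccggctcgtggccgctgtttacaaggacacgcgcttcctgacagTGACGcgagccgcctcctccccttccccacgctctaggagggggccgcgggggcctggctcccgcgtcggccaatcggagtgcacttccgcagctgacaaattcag
Egr4: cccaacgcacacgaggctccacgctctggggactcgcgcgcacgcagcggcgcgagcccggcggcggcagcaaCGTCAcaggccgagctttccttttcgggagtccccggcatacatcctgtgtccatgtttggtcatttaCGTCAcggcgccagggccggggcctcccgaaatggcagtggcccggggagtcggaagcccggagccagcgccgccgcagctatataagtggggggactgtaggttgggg

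In the Arl4d promoter the full element ends 19 bases before the start. The Egr4 promoter has 2 short elements and the Junb promoter 1. Such a match describes the letters of a window and not the binding of a factor.

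The Herpud1 promoter (chr8:94386179-94386428, plus strand) is shown because it holds the ER stress response element ERSE-II. This is a binding site of factors of the unfolded protein response, in capitals, and was found on either strand in 10 of the 32851 promoters (0.0304%). The promoter also holds TGACG once, left in lower case.
Herpud1: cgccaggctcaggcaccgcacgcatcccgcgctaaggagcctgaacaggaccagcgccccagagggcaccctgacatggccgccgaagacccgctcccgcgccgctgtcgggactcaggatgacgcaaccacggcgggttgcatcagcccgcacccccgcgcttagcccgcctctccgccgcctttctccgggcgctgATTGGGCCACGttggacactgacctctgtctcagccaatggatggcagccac

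The other genes of the 2 pathways around Herpud1 did not pass the test. Of 20 genes of the unfolded protein response and of folding in the endoplasmic reticulum, 8 had a higher and 12 a lower estimate, at a median log2 fold change of -0.04. Atf4, a transcription factor of the stress response, was at 83.2 to 109 CPM with evacetrapib and at 90.3 to 136 CPM with vehicle (log2 fold change -0.32, edgeR adjusted p = 0.393). Of 21 genes of degradation from the endoplasmic reticulum, 14 had a lower estimate, with a median of -0.03. Ufd1, which extracts substrates for the proteasome, was at 60.1 to 63.3 CPM with evacetrapib and at 64.9 to 66.8 CPM with vehicle (log2 fold change -0.11, edgeR adjusted p = 0.44).

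Like the other lists, the list of 20 immediate early genes was chosen with earlier results of these data known. Counts of list members beside those of all genes are therefore not independent evidence. All 20 genes passed the count filter. Of these, 19 had a lower estimate with evacetrapib, 13 of them at an unadjusted p under 0.05 against 4.32% of all genes tested. In 10 the groups did not overlap, against 2.32% of all genes tested. The median log2 fold change of the list was -0.71. Npas4, Junb and Egr4 were the 3 that passed the test in edgeR, against 0.043% of all genes. DESeq2 called 6, all lower, against 0.22% of all genes. Without mouse E the counts were 19 lower, 12 at an unadjusted p under 0.05, and 4 that passed. Without mouse G they were 19, 13 and 0. Without E and F they were 17, 11 and 0, and with E, G and S6 left out together 16, 12 and 0.

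Among the members that did not pass, Fos, the AP-1 subunit most used as a mark of active neurons, was at 21.7, 5.40, 12.8 and 20.6 CPM in E, F, G and H. Fos was at 36.1, 42.4, 50 and 33.1 CPM in S5 to S8 (log2 fold change -1.42, SE 0.292, edgeR adjusted p = 0.153). Mouse F had the lowest value and the groups did not overlap. Btg2, an antiproliferative protein, was at 8.28 to 19.2 CPM with evacetrapib and at 25.1 to 28.1 CPM with vehicle (log2 fold change -1.04, edgeR adjusted p = 0.0882). Arc, which acts at synapses on AMPA receptor traffic, was at 132, 50.7, 94.4 and 196 CPM against 227, 205, 293 and 214 CPM (log2 fold change -0.99, edgeR adjusted p = 0.291). Mouse H came close to S6 in Arc.

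Ier2 was at 6.13 to 9.70 CPM with evacetrapib and at 12 to 15.0 CPM with vehicle, and Egr1 at 126 to 256 CPM and 282 to 387 CPM. Fosb was at 12 to 15.4 CPM with evacetrapib and at 16.8 to 48.6 CPM with vehicle, and Egr2 at 1.38 to 6.31 CPM and 7.08 to 17.3 CPM. These 4 also separated the groups, with edgeR adjusted p between 0.222 and 0.226. The phosphatase gene Dusp1, at 18.2 to 37.7 CPM against 33.2 to 56.1 CPM, and the nuclear receptor gene Nr4a1, at 46 to 121 CPM against 99.8 to 192 CPM, overlapped between the groups. The estimates were near 0 for Jun, Klf4 and Egr3, at -0.05, -0.14 and -0.13, and Fosl2 had the single estimate above 0, at 0.08. The sign of these 4 changed when single mice were left out.

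Over the list, the mice also differed within a group. The median deviation of the 20 genes from their mean in the 8 mice was -0.79 on the log2 scale in F, -0.35 in G, -0.21 in E and close to 0 in H (-0.001). In the vehicle mice it was 0.17 in S5, 0.22 in S8, 0.42 in S6 and 0.59 in S7. The 2 groups did not overlap, and F and S7 were the mice farthest apart.

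**Figure D3:**
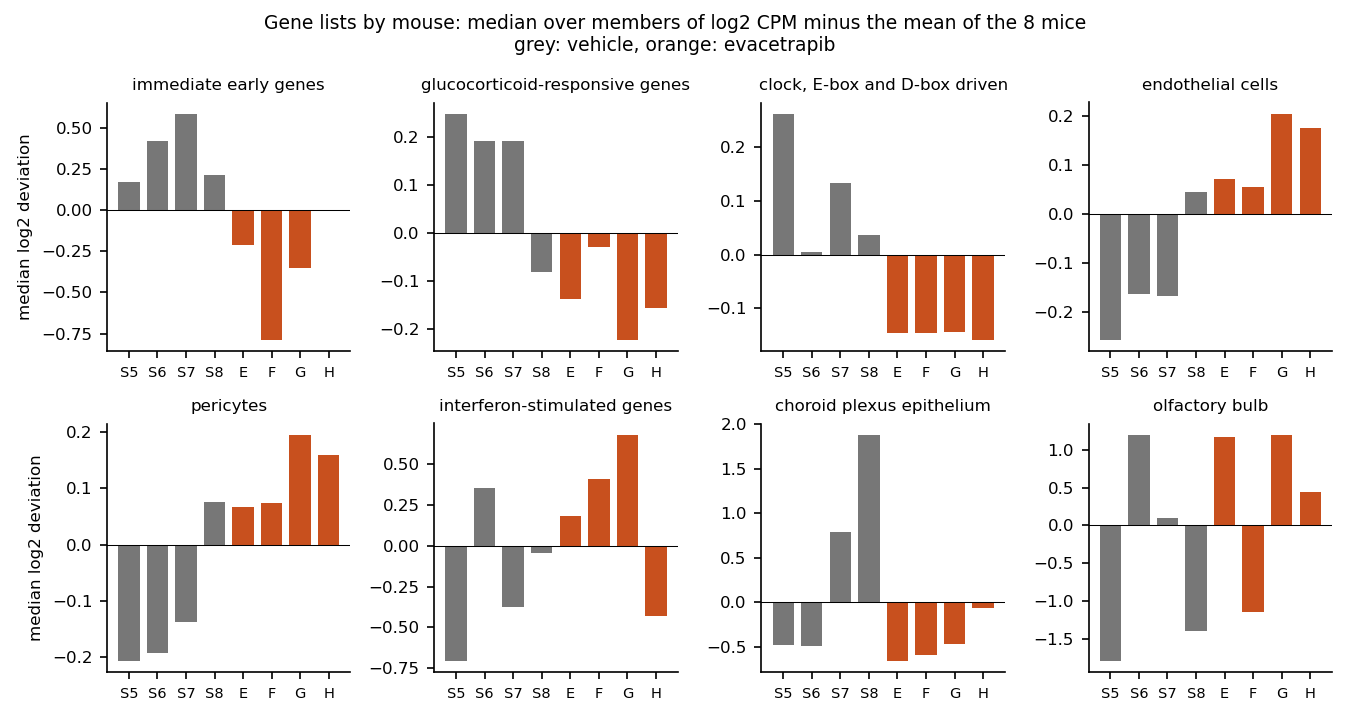
Median, over the members of a list, of log2 CPM minus the gene's mean over the 8 mice, for vehicle mice S5 to S8 (grey) and evacetrapib mice E to H (orange). Immediate early genes and clock genes are lower in all 4 evacetrapib mice, choroid plexus genes are high in S7 and S8, and olfactory bulb genes are high in S6, E and G.

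Genes that respond to glucocorticoids had mostly lower estimates with evacetrapib. Of 18 genes on the list, 16 had a lower estimate, 11 of them at an unadjusted p under 0.05 against 4.32% of all genes, and the median log2 fold change was -0.34. In 4 the evacetrapib mice all lay below the vehicle mice, against 2.32% of all genes. No member passed in edgeR, and DESeq2 called 6, all lower, against 0.22% of all genes. Without mouse E, 8 of the 16 lower estimates had an unadjusted p under 0.05. With E, G and S6 left out the median was -0.15.

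Tsc22d3, the glucocorticoid-induced leucine zipper, was at 47.8, 51.6, 38.8 and 48.0 CPM in E to H and at 71.8, 70.4, 65.6 and 52.9 CPM in S5 to S8 (log2 fold change -0.48, SE 0.0966, edgeR adjusted p = 0.133). Sgk1, a kinase induced by corticosteroids, was at 56.4, 63.1, 38.1 and 39.5 CPM and at 126, 74.0, 98.8 and 77.1 CPM (log2 fold change -0.93, SE 0.192, edgeR adjusted p = 0.153). In both genes the groups did not overlap, and S8 or S6 was the lowest vehicle mouse. Klf9 was at 166 to 194 CPM against 208 to 279 CPM and Nfkbia, the inhibitor of NF-kB, at 17.4 to 23.8 CPM against 23.9 to 34.6 CPM, again without overlap. Plin4, a lipid droplet protein, was at 2.68, 6.94, 2.40 and 2.46 CPM and at 11.2, 18.8, 14.7 and 3.88 CPM (log2 fold change -1.71, edgeR adjusted p = 0.226). Here F was above and S8 below the rest of their groups. Fkbp5, the cochaperone of the glucocorticoid receptor, overlapped between the groups, at 37.6 to 47.2 CPM and 34.8 to 55.3 CPM. Lcn2 went the other way, at 0.603 to 1.66 CPM with evacetrapib and at 0.0901 to 0.400 CPM with vehicle (log2 fold change 1.69, edgeR adjusted p = 0.252), at levels near the count filter.

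All 13 clock genes whose transcription follows E-box and D-box elements had a lower estimate with evacetrapib. Of these, 10 had an unadjusted p under 0.05, against 4.32% of all genes, and the median log2 fold change was -0.28. In 4 of them, Bhlhe41, Per2, Ciart and Tef, the groups did not overlap, against 2.32% of all genes. No member passed in edgeR, and DESeq2 called Bhlhe41, where it called 0.22% of all genes lower. Bhlhe41, a repressor in the clock, was at 43.4, 37.7, 43.4 and 40.7 CPM in E to H and at 62.7, 51.2, 59.4 and 51.1 CPM in S5 to S8 (log2 fold change -0.44, SE 0.0849, edgeR adjusted p = 0.0895). Ciart, another repressor, was at 13.7, 12.5, 14.9 and 12.4 CPM and at 42.6, 16.8, 25.7 and 19.5 CPM (log2 fold change -0.95, edgeR adjusted p = 0.226). The evacetrapib mice were close together in Ciart and the vehicle mice were not, S5 being the highest. Per2 was at 32.5 to 41.2 CPM against 42.4 to 74.5 CPM, and Dbp, at 109 to 118 CPM against 115 to 176 CPM, overlapped by 1 mouse on each side. Arntl, which encodes BMAL1 and cycles in the opposite phase, was at 29.1 to 31.9 CPM with evacetrapib and at 20.8 to 29.8 CPM with vehicle (log2 fold change 0.28, edgeR adjusted p = 0.424). Of the 7 genes of the opposite phase, 5 had a higher estimate.

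The Ciart promoter (chr3:95882229-95882478, minus strand) is shown because the E-box CACGTG, the site of CLOCK and BMAL1, occurs in it 3 times, in capitals, and because Ciart had the widest difference of the list. An E-box was found in 5 of the 11 clock genes with an entry, counting any entry of a gene. Of all single promoters of that length, 6.02% held it.
Ciart: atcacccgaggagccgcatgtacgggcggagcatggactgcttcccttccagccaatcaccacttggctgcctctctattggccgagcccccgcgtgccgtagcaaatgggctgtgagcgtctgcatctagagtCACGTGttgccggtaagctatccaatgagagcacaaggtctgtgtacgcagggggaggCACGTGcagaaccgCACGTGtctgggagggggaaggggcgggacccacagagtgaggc

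In the vessel wall the estimates were mostly higher with evacetrapib, and no gene passed the test in edgeR. In bulk tissue, more cells of a type and more RNA per cell cannot be told apart. Of 22 endothelial genes, 21 had a higher estimate, 16 at an unadjusted p under 0.05 against 4.7% of all genes, and the median log2 fold change was 0.25. In 7 the evacetrapib mice all lay above the vehicle mice, against 1.97% of all genes. All 11 pericyte genes had a higher estimate, with a median of 0.23. Of 13 smooth muscle genes 10 were higher, with a median of 0.18. DESeq2 called 3, 2 and 2 genes of these lists, all higher, against 0.172% of all genes. Without mouse E the endothelial counts were again 21 and 16 and the median was 0.28. Without mouse G 12 endothelial genes had an unadjusted p under 0.05 and a higher estimate. The endothelial and smooth muscle lists share genes with the 24 that the study chose over both genotypes. Among these are Flt1, Kdr, Cdh5, Mmrn2, Myh11, Tagln and Acta2. That choice was made partly on these mice, so the counts of these 2 lists are not independent of it.

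Myh11, the smooth muscle myosin heavy chain, had the smallest p of the genes that were higher. It was at 11.1, 10.9, 10.5 and 12.3 CPM in E to H and at 7.53, 5.99, 7.28 and 8.34 CPM in S5 to S8 (log2 fold change 0.61, SE 0.117, edgeR adjusted p = 0.0882). Tagln, an actin-binding protein of the same cells, was at 8.27, 6.78, 6.87 and 8.68 CPM and at 4.95, 5.27, 4.58 and 6.09 CPM (log2 fold change 0.54, edgeR adjusted p = 0.226). The groups of both genes did not overlap. Acta2 was at 8.94 to 11.3 CPM against 5.81 to 9.05 CPM and overlapped in S8.

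Mmrn2, an endothelial matrix glycoprotein, was at 6.49, 5.28, 6.82 and 6.59 CPM in E to H and at 3.72, 4.37, 4.22 and 5.05 CPM in S5 to S8 (log2 fold change 0.52, SE 0.117, edgeR adjusted p = 0.199). Flt1, a VEGF receptor, was at 65.1, 67.8, 79.2 and 71.6 CPM and at 51.0, 55.3, 55.7 and 63.4 CPM (log2 fold change 0.33, edgeR adjusted p = 0.226). In both, S8 was the highest vehicle mouse and G the highest evacetrapib mouse. Claudin 5 (Cldn5), of the tight junctions, was at 33.6 to 50.3 CPM against 18.7 to 34.7 CPM (log2 fold change 0.55, edgeR adjusted p = 0.247), and Kdr and Cdh5 had log2 fold changes of 0.50 and 0.40. The glucose transporter gene Slc2a1 was the 1 endothelial gene with a lower estimate, at 102 to 114 CPM with evacetrapib and at 107 to 145 CPM with vehicle (log2 fold change -0.23, edgeR adjusted p = 0.378). Among pericyte genes Rgs5 was at 69.8, 73.7, 73.6 and 81.5 CPM against 57.0, 57.2, 55.6 and 69.5 CPM (log2 fold change 0.31, edgeR adjusted p = 0.226), where S8 was close to E. Vtn was at 71.3 to 89.2 CPM against 52.4 to 72.3 CPM.

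Of meningeal fibroblast genes, 15 of 16 had a higher estimate, 6 at an unadjusted p under 0.05 against 4.7% of all genes. The median log2 fold change was 0.30. Col1a2, a chain of type I collagen, was at 25.7, 22.6, 22.0 and 22.2 CPM with evacetrapib and at 14.3, 18.4, 18.6 and 18.6 CPM with vehicle (log2 fold change 0.40, edgeR adjusted p = 0.299). S5 was the lowest mouse and the groups did not overlap. Slc6a13, a GABA transporter of the meninges, was at 11.5 to 13.3 CPM against 7.30 to 10.6 CPM. With E, G and S6 left out the median of the list was 0.11. Of 22 collagen and basement membrane genes 18 had a higher estimate, with a median of 0.17, and fibronectin (Fn1) was at 63.5 to 74.1 CPM against 47.5 to 65.8 CPM. Olfactory bulb genes were also lowest in S5 and high in E and G, and their part in these estimates was not tested.

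**Figure D4:**
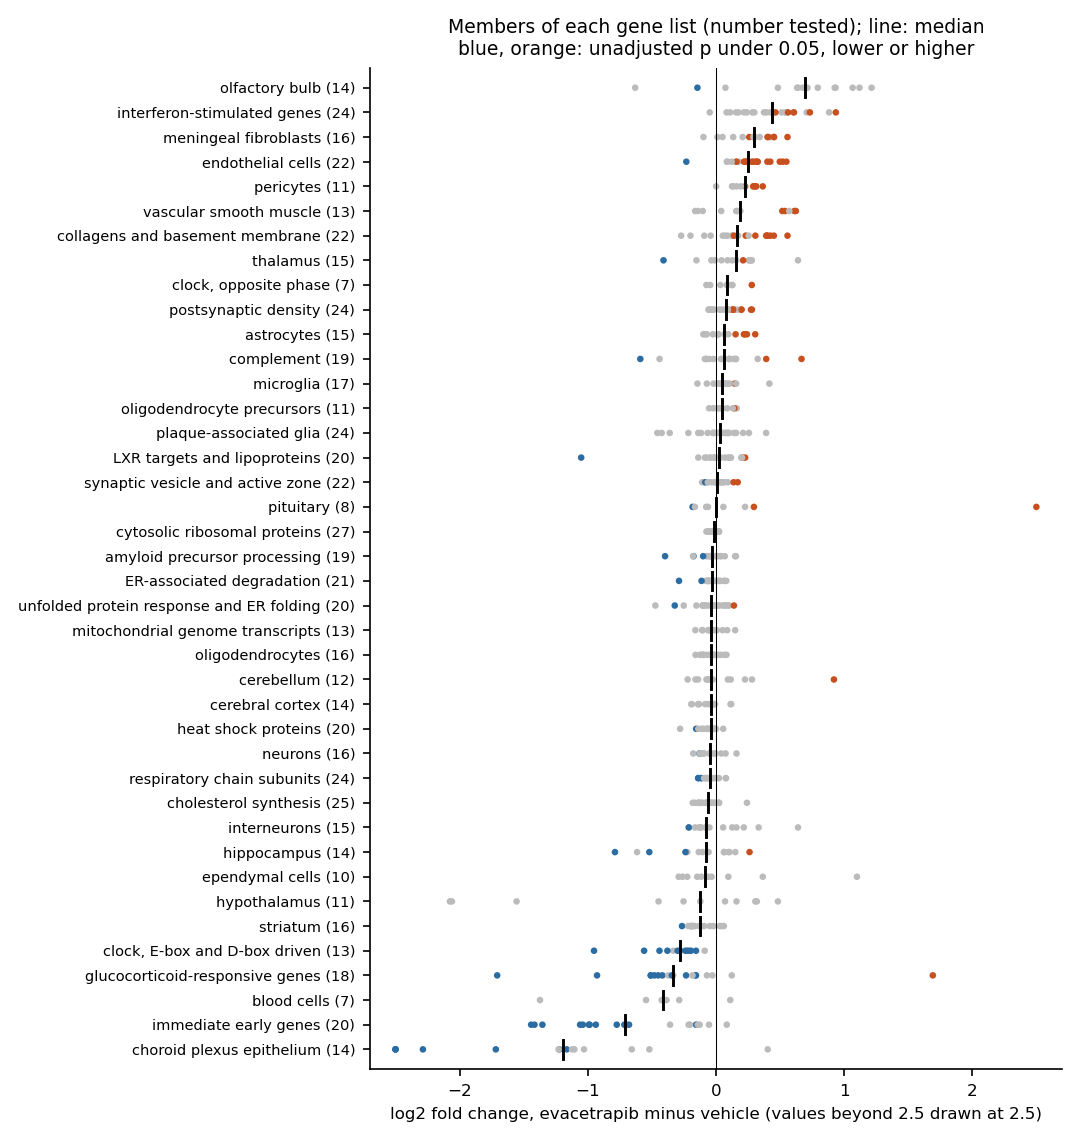
Log2 fold change between evacetrapib and vehicle of each member (points) of 40 gene lists and the median of each list (black line), with the number of genes tested in parentheses; blue and orange points had an unadjusted p under 0.05 and a lower or higher estimate, and values beyond 2.5 are drawn at 2.5. Immediate early, glucocorticoid-responsive and clock genes have medians of -0.71, -0.34 and -0.28, and vascular and meningeal lists have medians of 0.18 to 0.30.

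Besides Myh11 and Mmrn2, the smallest p among higher estimates belonged to Afap1, Zbtb37, Col12a1, Slc4a4, Ino80d, Tgm2, Lrp4, Afg3l1, 9430053O09Rik and Ddx6. Their edgeR adjusted p was between 0.179 and 0.222. Their groups did not overlap, against 1.97% of all genes, but they were picked by p from the same mice. Slc4a4, the sodium bicarbonate cotransporter of astrocytes, was at 164, 148, 184 and 172 CPM in E to H and at 134, 144, 147 and 141 CPM in S5 to S8 (log2 fold change 0.24, SE 0.0526). Lrp4, a receptor of agrin and apolipoprotein E, was at 49.9 to 68.2 CPM against 40.8 to 49.6 CPM (log2 fold change 0.37). Lrp4 lay just apart between E and S8. Col12a1 had a log2 fold change of 0.39, Tgm2, a transglutaminase, 0.45 and Afap1 0.25. Of 15 astrocyte genes, 11 had a higher estimate, 5 at an unadjusted p under 0.05 against 4.7% of all genes, with a median of 0.066. The median was 0.0097 without G, 0.028 without S5, 0.039 without H, 0.10 without F and 0.11 without S8, and 3 members had an unadjusted p under 0.05 without G or without S5. The water channel gene Aqp4 was at 61.9 to 99.3 CPM against 51.4 to 68.4 CPM (log2 fold change 0.31, edgeR adjusted p = 0.411).

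Interferon-stimulated genes had 23 of 24 estimates higher with evacetrapib, 5 at an unadjusted p under 0.05 against 4.7% of all genes. The median log2 fold change was 0.44. The mice of both groups were mixed. Gbp2, a guanylate-binding protein, was at 5.89, 4.83, 13.6 and 4.64 CPM in E to H and at 2.99, 4.06, 3.13 and 4.67 CPM in S5 to S8 (log2 fold change 0.94, edgeR adjusted p = 0.268), and mouse G stood apart. The median deviation of the 24 genes was 0.68 in G, 0.41 in F, 0.18 in E and -0.43 in H. In the vehicle mice it was 0.36 in S6 and -0.71 in S5, so both groups held high and low mice. No member had groups that did not overlap. Single mice moved both values: 16 members had an unadjusted p under 0.05 without H and 14 without S6, each at a median of 0.62, and 3 had one without G, S5 or S7, at medians of 0.24, 0.28 and 0.34.

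In genes of neurons and synapses the medians were near 0. Of 16 neuronal markers 13 had a lower estimate, at a median log2 fold change of -0.05, and the 22 genes of synaptic vesicles and the active zone had a median of 0.0078. Of 24 genes of the postsynaptic density 17 had a higher estimate, 7 at an unadjusted p under 0.05 against 4.7% of all genes. Their median was 0.08. Shank1, a scaffold of the postsynaptic density, was at 553, 683, 622 and 567 CPM with evacetrapib and at 455, 533, 494 and 525 CPM with vehicle (log2 fold change 0.27, edgeR adjusted p = 0.226), without overlap. Somatostatin (Sst) was at 166 to 204 CPM against 204 to 232 CPM. Of 24 nuclear subunits of the respiratory chain 20 had a lower estimate, with a median of -0.05. In 4 of them, among them Ndufs1, at 127 to 136 CPM against 137 to 146 CPM, and Cox5a, at 120 to 128 CPM against 133 to 144 CPM, the groups did not overlap, against 2.32% of all genes with the evacetrapib mice below.

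Genes of cholesterol and amyloid metabolism, which the treatment and the transgene concern, did not pass the test. Of 25 genes of cholesterol synthesis 21 had a lower estimate, none at an unadjusted p under 0.05, and the median log2 fold change was -0.06. Of 20 LXR targets and lipoprotein genes 11 were higher and 9 lower, with a median of 0.03. Abca1, the cholesterol exporter, was at 55.5, 45.3, 66.6 and 47.0 CPM against 43.7, 53.5, 46.4 and 42.6 CPM (log2 fold change 0.21, edgeR adjusted p = 0.551). Apoc1 was at 0.186 to 0.415 CPM against 0.541 to 0.701 CPM, without overlap and near the count filter. App was at 1989, 2389, 2115 and 1989 CPM in E to H and at 2720, 2366, 2261 and 2231 CPM in S5 to S8 (log2 fold change -0.17, edgeR adjusted p = 0.482), where the highest evacetrapib mouse, F, was above 3 vehicle mice. Of 19 genes of amyloid precursor processing 12 had a lower estimate, with a median of -0.03, and of 24 genes of plaque-associated glia 14 had a higher estimate, with a median of 0.03. Microglial and oligodendrocyte lists had medians of 0.05 and -0.04.

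Choroid plexus, olfactory bulb and pituitary lists had wide estimates that followed single mice. The 14 choroid plexus genes showed a median log2 difference of -1.19, and 0.20 without S7 and S8. The 14 olfactory bulb genes had a median of 0.70, and no member had a higher estimate at an unadjusted p under 0.05. Without S6 there were 10 such members and the median was 1.48. Their summed level was 384 CPM in E, 401 in G, 226 in H and 95.1 in F, and 382 in S6, 186 in S7, 79.4 in S8 and 67.1 in S5. Pomc was at 148 CPM in E and at 1.52 to 1.90 CPM in F, G and H. The hypothalamic, striatal, thalamic and cortical lists had medians of -0.12, -0.12, 0.16 and -0.04. Of 14 hippocampal genes tested, 8 had a lower estimate, 3 at an unadjusted p under 0.05 against 4.32% of all genes. The other 6 had a higher estimate, 1 at an unadjusted p under 0.05 against 4.7% of all genes. In 1 member the evacetrapib mice all lay above the vehicle mice, against 1.97% of all genes, and in 0 below. DESeq2 called 1 member, which was higher, against 0.172% of all genes. The median of the 14 was -0.081. The median deviation of the hippocampal list, like that of the immediate early list, was lower in all 4 evacetrapib mice (-0.191 to -0.016) than in the vehicle mice (0.039 to 0.15), and its part in the immediate early estimates was not tested.

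Of the 24 genes that the study chose over both genotypes, which include these mice, 19 had a higher and 5 a lower estimate here, all at an unadjusted p under 0.05, and Herpud1 was the 1 that passed. The list was chosen partly on these mice, so its direction is not independent evidence. The same holds for its members in other lists, such as those of endothelial, smooth muscle and clock genes.

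The effect of evacetrapib was then compared between the genotypes. In the CETPtg mice no gene passed the test, and 1079 genes (5.8%) had an unadjusted p under 0.05. The difference between the genotypes passed for no gene in edgeR, with 1271 genes (6.83%) at an unadjusted p under 0.05, and for 2 genes in DESeq2 (0.0107%), Arl4d and Ccn1. For Arl4d the log2 fold change was -0.81 in APPtg/CETPtg and 0.12 in CETPtg mice, and the difference was -0.93 (SE 0.151, edgeR adjusted p = 0.127, DESeq2 adjusted p = 4.98e-05). For Ccn1 it was -1.28 and 0.22, with a difference of -1.49 (SE 0.298, edgeR adjusted p = 0.366, DESeq2 adjusted p = 0.00241). Without the CETPtg vehicle mouse S2, edgeR also called Arl4d.

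The immediate early list had the most members, of the 41 lists, at an unadjusted p under 0.05 for the difference between the genotypes. In CETPtg mice 18 of the 20 had an estimate above 0, at a median log2 fold change of 0.09 against -0.71 in APPtg/CETPtg mice. At that threshold 14 of the 20 differed, against 6.83% of all genes. This list, like the others, was chosen with earlier results of these data known. Comparing the genotypes uses the same APPtg/CETPtg values, on which Npas4, Junb and Egr4 were also called. A list picked for low values there tends to differ from CETPtg mice, so the count of 14 is not independent evidence. For Npas4 the log2 fold change was 0.09 in CETPtg mice, at 0.10 for Junb, 0.04 for Egr4 and 0.06 for Fos. The differences for Npas4, Junb and Egr4 were -1.53, -1.16 and -0.98, with edgeR adjusted p of 0.263, 0.263 and 0.47.

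The clock list had lower estimates in both genotypes, with 13 of 13 estimates below 0 in CETPtg mice as well, a median of -0.17 and no member with a difference at an unadjusted p under 0.05. Endothelial genes had 20 of 22 estimates above 0 in CETPtg mice and a median of 0.20, with a difference in 1 gene, Slc2a1. Study genes in the clock and endothelial lists, such as Per2, Flt1 and Kdr, were chosen over both genotypes together. For them, agreement between the genotypes is not independent evidence. Glucocorticoid-responsive genes had a median of -0.06 in CETPtg mice, and 6 of the 18 differed at an unadjusted p under 0.05. Tsc22d3 was at a log2 fold change of 0.01 in CETPtg mice, with a difference of -0.49 (edgeR adjusted p = 0.703). Meningeal fibroblast genes had a median of -0.03 in CETPtg mice against 0.30, and 2 of 16 differed.

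**Figure D5:**
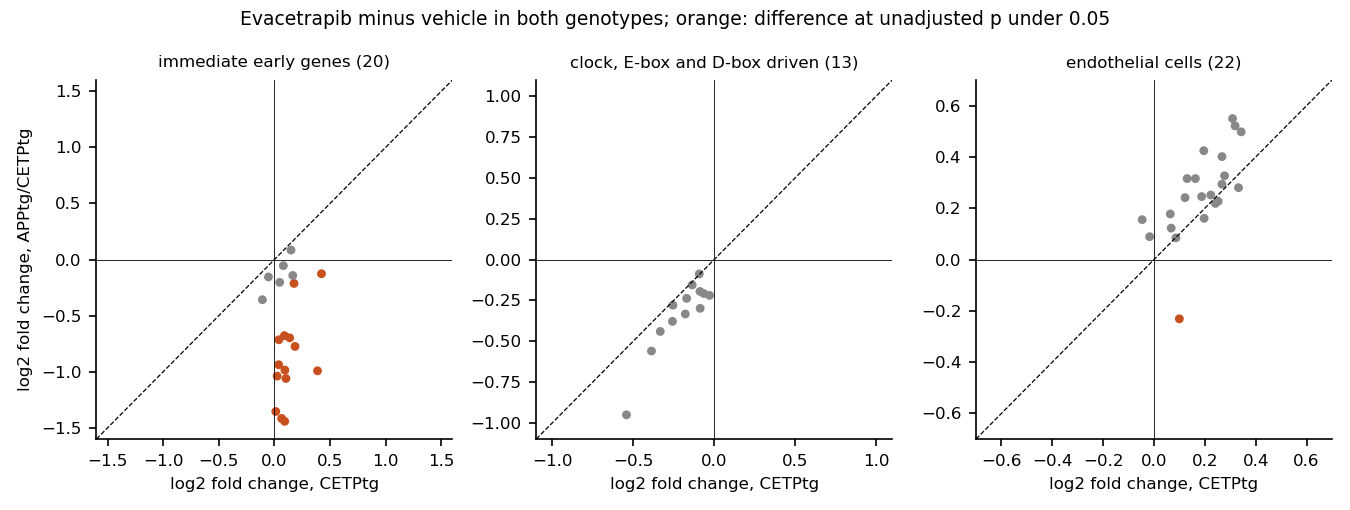
Log2 fold change between evacetrapib and vehicle in CETPtg mice (x axis) and in APPtg/CETPtg mice (y axis) for members of 3 gene lists; the dashed line marks equal change and orange points differ at an unadjusted p under 0.05. All 20 immediate early genes lie below the line, Fosl2 and Jun close to it, and 0 of 13 clock and 1 of 22 endothelial genes are orange.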

How the data were processed

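Brain RNA of 16 mice was sequenced as poly(A) libraries, with 4 mice in each of 4 groups of genotype and treatment, taken from the labels. The authors trimmed reads with Trimmomatic 0.39, aligned them to mm10 with STAR 2.7.8a and deposited raw counts per gene from HTSeq-count, which were used as deposited. The strand setting of the counting is not given in the sources used here. Normalized expression values made by the authors were not used.

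A gene entered the test where 4 or more of the 16 mice had 10 or more counts, and was tested with edgeR 4.0.16 (R 4.3.3), using TMM library sizes, the quasi-likelihood test (two-sided) and Benjamini-Hochberg adjustment over all 18609 genes. The fit had 1 mean for each of the 4 groups and no covariates. Calls needed an adjusted p no higher than 0.05 and the small minimum fold change that the study used. The SE is the size of the log2 fold change divided by the square root of F. The steps were tested on simulated data. DESeq2 1.42.0, limma 3.58.1 (voom), other filters and size factors, thinned counts, fits without each mouse and fits to fewer libraries were the alternatives. Named were the called genes, the 12 genes with the smallest p in each direction, the 10 with the largest change among expressed genes without overlap, members of the 41 lists, and Thy1 and App. The members and lists were chosen with earlier results of these data known. Lists are described by counts and medians. Coordinates are from GENCODE M21.

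Libraries held between 21391335 and 55453789 counts in the APPtg/CETPtg mice, which sets the counting error of low genes. Replicate mice differed by more than counting noise in all 12 pairs compared. Evacetrapib and vehicle libraries had indices from different rows of the index plate, so a difference between index positions and treatment cannot be told apart. One gene of a list is not reported by name here.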

Additional observations from a re-analysis of the deposited data

Results flagged for a closer look

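In 242 groups of 4 mice, 18 values lay far from the rest of their group by Dixon's test, and chance gives about 1 in 20. No explanation was weighed. Mouse F was low in Npas4 (6.33 CPM) and high in Plin4 (6.94 CPM) among the evacetrapib mice. Its summed levels were apart for neuronal markers (16930 CPM, Thy1 included), ependymal markers (24.6 CPM) and genes of degradation from the endoplasmic reticulum (1600.0 CPM). Mouse E was high in Pomc (148 CPM), the summed pituitary markers (1701 CPM) and Col1a2 (25.7 CPM), and mouse G was high in Slc6a13 (13.3 CPM). Among the vehicle mice, S8 was apart in Gm19439 (6.41 CPM), Rgs5 (69.5 CPM), Ufd1 (64.9 CPM), Ndufs1 (137 CPM) and the summed ependymal markers (32.9 CPM). S5 was low in Col1a2 (14.3 CPM) and Aqp4 (51.4 CPM), and S6 was apart in the summed heat shock (5927 CPM) and respiratory chain (5691 CPM) genes.

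The effect of evacetrapib differed between the genotypes in DESeq2 for Arl4d, by -0.93 on the log2 scale, and for Ccn1, by -1.50. Neither passed in edgeR.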

How the results depend on the processing

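The count of 8 genes was 8 with DESeq2's size factors, with at least 10 counts in every mouse and with no fold minimum, and 7 with limma-voom or thinned counts. It was 73 with the DESeq2 Wald test, 88 with no filter on low counts and 2 in a fit to the 8 mice alone. It was 0 without E and F, whose index plate column was 8. The other APPtg/CETPtg mice had column 9, and this fit is called column 9 below. It kept all CETPtg mice and left only G and H with evacetrapib, so index column and group size cannot be told apart. Leaving out 1 mouse gave 0 to 14 genes. Of the alternatives chosen after seeing the data, leaving out S7 and S8 gave 24 genes, leaving out E, G and S6 gave 0, and DESeq2 without E gave 40. The difference between the genotypes passed for 2 genes in DESeq2 and 29 with no filter, and for 0 to 1 without 1 mouse. Without S7 and S8, list medians (log2) were 0.36 for endothelial, 0.35 for pericyte, 0.49 for smooth muscle, 0.20 for choroid plexus and -0.37 for clock genes. In column 9, without E and F, they were 0.32 for smooth muscle and 0.27 for collagens. Without E, G and S6 they were 0.11 for meningeal and -0.15 for glucocorticoid-responsive genes. Leaving out 1 mouse gave medians of 0.21 to 0.29 for endothelial, 0.18 to 0.31 for pericyte, 0.12 to 0.45 for smooth muscle, 0.20 to 0.41 for meningeal, -1.50 to -0.42 for choroid plexus and 0.40 to 1.48 for olfactory bulb genes. They were -0.34 to -0.19 for clock, -0.87 to -0.56 for immediate early, -0.41 to -0.22 for glucocorticoid-responsive, 0.24 to 0.62 for interferon-stimulated and 0.12 to 0.21 for collagen genes. Among the genes followed singly over the alternative fits, the estimate changed sign for Sqle, which was at 0.033 without E, G and S6. It changed sign for Thy1, at -0.46 to 0.11 without 1 mouse, the highest without S5, and 0.12 without E, G and S6. It did so for Pomc, at -0.18 in column 9 and -0.19 to 4.71 without 1 mouse, the lowest without E. Pomc was at -0.20 in DESeq2 without E. The estimate also changed sign for Jun (-0.12 to 0.062 without 1 mouse, 0.10 without E, G and S6), Klf4 (-0.31 to 0.008 without 1 mouse, 0.099 in column 9, 0.065 without S7 and S8), Egr3 (-0.245 to 0.071 without 1 mouse, 0.083 without E, G and S6) and Fosl2 (-0.031 to 0.24 without 1 mouse). The causes were not tested. With 4 mice a group, small changes and genes near the count filter cannot be resolved. No paired analysis was possible because the groups share no replicate numbers.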
